A study of Mus musculus with 8 samples.

Results

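Wnt target and feedback genes other than Axin2 were followed in bEnd.3 cells, an immortalised mouse endothelial line from brain. Their 8 members were chosen by symbol, as Ccnd1, Myc, Sox4, Cd44, Znrf3, Nkd2, Apcdd1 and Dkk2, among 15452 gene rows of the deposited table, and all 8 were found there. Each also had enough counts to be tested, among 13666 tested genes. The cultures received recombinant Norrin at 200 ng/ml or its vehicle, PBS with 0.1% BSA, 24 h after seeding, and were harvested after another 24 h, with 4 libraries per group. The labels call the control both vehicle and untreated. They name 1 cell line, 1 dose and 1 time. The series text calls the libraries biological replicates without saying what separated the cultures, so each p-value measures the spread between these cultures. In bulk RNA, fewer cells of a kind and less RNA per cell cannot be told apart.

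Norrin is a secreted ligand that binds the receptor Frizzled-4 together with the coreceptors LRP5 or LRP6. Binding slows the destruction of beta-catenin, which then works with TCF/LEF factors on target genes. Some targets drive growth, such as the genes for cyclin D1 and Myc. Others, such as Axin2, Znrf3 and Nkd2, encode inhibitors that damp the same pathway, so their transcripts are widely used as a record of its activity. The question put to the data was how large a rise of each gene the replicate error excluded.

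Total counts ran from 12463942 to 15220576 per library. Levels are given as CPM, the count relative to the library's total, scaled by TMM factors. At these totals, 3 counts correspond to 0.193 to 0.241 CPM, a floor for counting error alone. All 13 listed endothelial markers were in the table, with the VE-cadherin gene Cdh5 at 2109 CPM under vehicle. Under Norrin, Esam rose (log2 fold change 0.31, edgeR adjusted p = 1.8e-05) and Egfl7 fell (−0.16, edgeR adjusted p = 0.038). Of the 13, 10 had a log2 fold change below 0. An unadjusted p under 0.05 (edgeR) was found for 6 of them, against 11.3% of all tested genes. Mural cell markers (5 of 8 listed in the table, 4 tested) summed to between 5.75 and 9.78 CPM in the vehicle libraries and between 6.12 and 7.15 CPM in the Norrin libraries. The table held 2 of 5 listed fibroblast markers, 1 of 5 for astrocytes, 1 of 5 for microglia, 1 of 4 for neurons and 0 of 4 for epithelium. The astrocyte marker was Gja1, at 50.9 CPM under vehicle, which is also on the target list below.

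None of the 8 genes passed the test (edgeR, Benjamini-Hochberg adjusted p under 0.05 over all tested genes), by edgeR, DESeq2 or limma-voom. Over the whole table, 2.17% of tested genes passed in either direction and 1.20% passed upward, so 0 of 8 is close to the background. An unadjusted p under 0.05 was found for 1 of the 8, Dkk2, and for 11.3% of all tested genes, so this count too is close to the background. The log2 fold change of Norrin over vehicle was above 0 for 3 genes and below 0 for 5. Its median over the 8 was −0.042, against 0.0048 over all tested genes. In none of the 8 did the 4 Norrin libraries lie wholly above or below the 4 vehicle libraries, which 7.01% of tested genes did.

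The intervals limited the size of a rise closely for all genes but Nkd2. For 7 of the 8, the upper end of the 95% interval lay below a 1.5-fold rise, and it stayed there at 99%. For Apcdd1, Dkk2, Sox4 and Cd44 the 95% upper end lay below a 1.1-fold rise. At 99% it did not for Apcdd1 (1.18-fold) and Sox4 (1.102-fold). Over all tested genes, 77.5% had a 95% upper end below 1.5-fold and 27.5% below 1.1-fold. Axin2 in the same libraries had an interval from 11.1-fold to 34.7-fold. Its vehicle libraries held only 8, 2, 4 and 5 reads, near the floor, so the size of its fold is loosely fixed. It reached the filter's minimum of 10 counts only in the Norrin libraries.

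**Figure D1:**
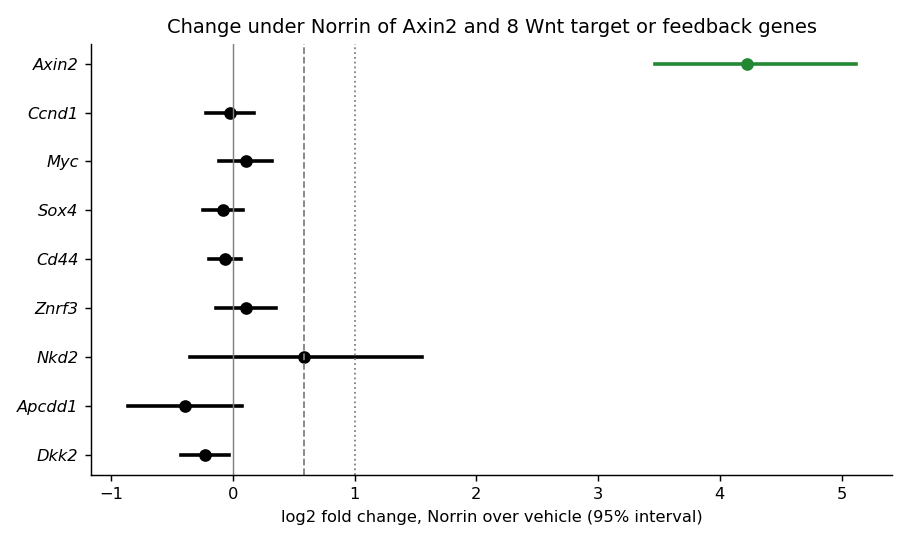
Log2 fold change of Norrin over vehicle (points) with its 95% interval (bars) for Axin2 and the 8 other genes; the dashed line is a 1.5-fold and the dotted line a 2-fold rise. The interval of Axin2, from 3.47 to 5.12, overlaps none of the others, of which the one for Nkd2 reaches 1.55.

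Among the growth and identity targets, Ccnd1 was the most abundant. It encodes cyclin D1, the partner of CDK4 and CDK6 that carries cells through G1. Its levels under vehicle were 401, 445, 390 and 432 CPM in replicates 1 to 4. Under Norrin they were 447, 363, 369 and 462 CPM. Norrin replicates 2 and 3 lay below every vehicle library and replicates 1 and 4 lay above every one, so the Norrin group enclosed the vehicle group. The means were 417 ± 25.9 and 410 ± 51.5 CPM (SD, n = 4 per group). The log2 fold change was −0.02 ± 0.09 (SE, edgeR adjusted p = 0.958), with an interval from −0.22 to 0.17. A rise beyond 1.13-fold and a fall beyond 14.2% lay outside it. The sign was not fixed by the data, since leaving out vehicle replicate 2 or Norrin replicate 2 or 3 gave 0.0090, 0.032 and 0.025.

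Myc encodes a transcription factor that promotes cell growth and is a textbook target of beta-catenin in intestinal epithelium. It was measured at 22.2, 24.1, 22.7 and 26.0 CPM under vehicle. The Norrin libraries gave 24.5, 27.4, 22.9 and 27.4 CPM. Norrin replicates 2 and 4 were the highest of the 8 libraries, while the other 2 fell inside the vehicle range. The mean went from 23.7 ± 1.71 to 25.5 ± 2.23 CPM (log2 0.11 ± 0.11, adjusted p = 0.813). The interval, from −0.11 to 0.32, left room for a rise of up to 1.25-fold.

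Sox4 encodes an HMG-box transcription factor of the SoxC group, reported to promote beta-catenin signalling. Its vehicle libraries stood at 63.8, 59.1, 56.1 and 64.3 CPM. Under Norrin, 3 libraries lay together at 53.8, 55.3 and 54.3 CPM, below every vehicle library, and replicate 4 stood alone at 66.7 CPM, above every one. The log2 fold change was −0.08 ± 0.08 (adjusted p = 0.811), and the upper end of its interval, 0.083, was a 1.06-fold rise. Without Norrin replicate 4 it was −0.16 ± 0.08 (adjusted p = 0.408).

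Cd44 encodes the receptor for hyaluronan, a matrix polysaccharide, and had the narrowest interval of the 8. Vehicle levels were 77.7, 88.4, 86.6 and 84.2 CPM. Norrin levels were 75.7, 84.8, 81.1 and 81.7 CPM, and the groups overlapped over most of their range. Its log2 fold change was −0.06 ± 0.06 (adjusted p = 0.827), with an interval from −0.19 to 0.071, so that a rise above 1.05-fold lay outside it.

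**Figure D2:**
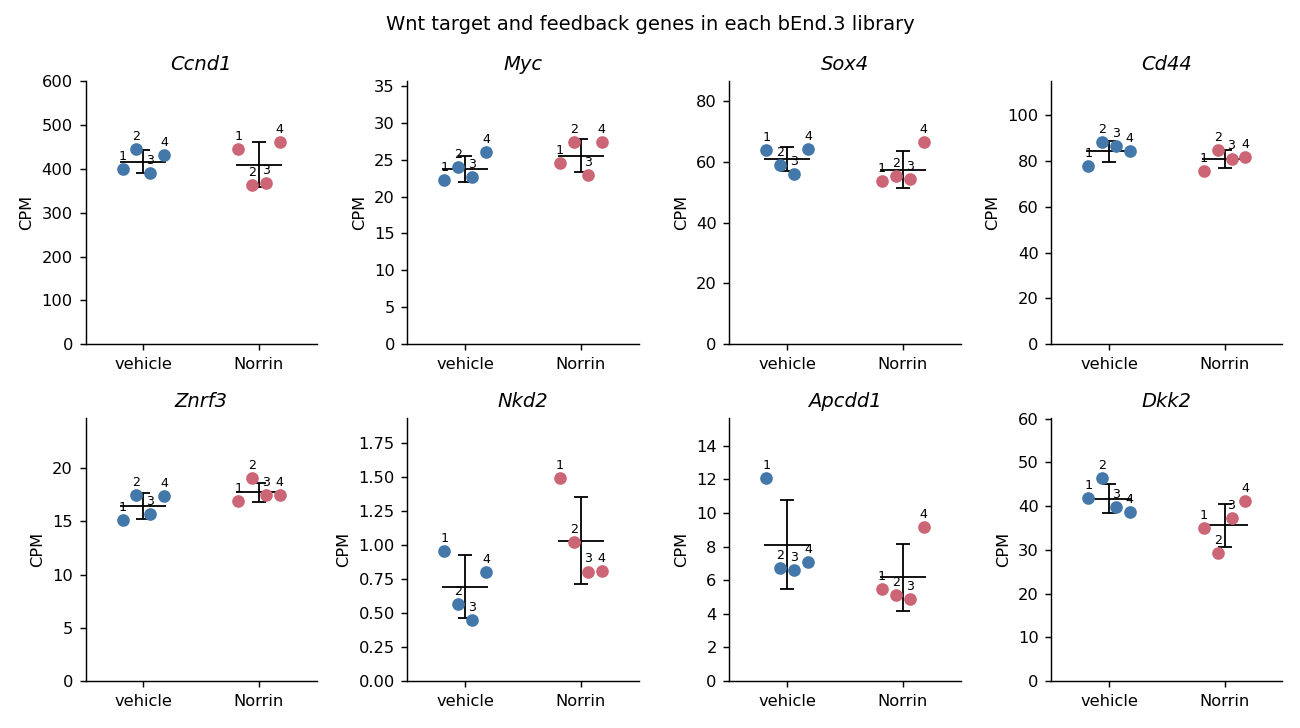
CPM in each library for the 8 genes, with the replicate number above each point, and the mean and SD of 4 libraries in black; the axes start at 0. The groups overlap in all 8 panels, and Norrin replicate 4 stands apart from the other Norrin libraries for Sox4 (66.7 CPM) and Apcdd1 (9.14 CPM).

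Of the feedback genes, Znrf3 and Nkd2 gave the only upward values beside Myc, while the values for Apcdd1 and Dkk2 were below 0. Znrf3 encodes a membrane ubiquitin ligase that removes Frizzled receptors from the cell surface. It was measured at 15.2, 17.5, 15.7 and 17.4 CPM under vehicle and at 16.9, 19.0, 17.5 and 17.5 CPM under Norrin. Norrin replicates 3 and 4 lay level with the highest vehicle library, and replicate 1 lay inside the vehicle range. The log2 fold change was 0.11 ± 0.12 (adjusted p = 0.835), with an interval from −0.14 to 0.36, or up to 1.28-fold.

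Nkd2 encodes a cytoplasmic inhibitor that binds Dishevelled. Its rows held only 12, 8, 7 and 10 reads under vehicle and 22, 14, 11 and 11 reads under Norrin. In CPM these were 0.958, 0.566, 0.450 and 0.803 against 1.49, 1.02, 0.805 and 0.811. Norrin replicates 1 and 2 were the highest of all, and replicates 3 and 4 matched vehicle replicate 4. For Nkd2 the log2 fold change was 0.59 ± 0.46 (adjusted p = 0.727), and its interval from −0.35 to 1.55 held both a fall of 21.6% and a 2.93-fold rise. With an SE of this size, a change would have had to reach 3.22-fold to pass. For Nkd2, therefore, a 2-fold rise was not excluded at this depth, while a rise as large as the lower end for Axin2 was.

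Apcdd1 encodes a membrane glycoprotein that binds Wnt ligands and LRP5 and inhibits the pathway, and is described in retinal vessels. Under vehicle it stood at 12.1 CPM in replicate 1 and at 6.72, 6.62 and 7.07 CPM in the other libraries. Under Norrin it stood at 5.48, 5.10 and 4.90 CPM in replicates 1 to 3 and at 9.14 CPM in replicate 4. One library in each group was thus well above the other 3. The log2 fold change was −0.39 ± 0.23 (adjusted p = 0.56), with an interval from −0.86 to 0.072, or at most a 1.05-fold rise. Leaving out vehicle replicate 1 gave −0.14 ± 0.23 and an upper end of 1.25-fold. Leaving out Norrin replicate 4 gave −0.65 ± 0.23 (adjusted p = 0.149), so the size of the difference depended on these 2 libraries.

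Dkk2 encodes a secreted protein of the Dickkopf family that binds LRP5 and LRP6. Vehicle levels were 41.8, 46.3, 39.9 and 38.7 CPM. Norrin levels were 34.9, 29.3, 37.3 and 41.1 CPM, of which the first 3 lay below every vehicle library. The mean went from 41.7 ± 3.36 to 35.7 ± 4.93 CPM (log2 −0.23 ± 0.10, adjusted p = 0.337). Its 95% interval, from −0.43 to −0.027, was the only one of the 8 that did not reach 0, while the 99% interval did. The 95% interval also passed 0 without vehicle replicate 2, Norrin replicate 1 or Norrin replicate 2, with upper ends of 0.044, 0.0074 and 0.058. The value ran from −0.14 ± 0.10 without Norrin replicate 2 (adjusted p = 0.707) to −0.30 ± 0.10 without Norrin replicate 4 (adjusted p = 0.114).

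Norrin replicate 4 touched the 3 lowest values together. Without it, the remaining Norrin libraries lay wholly below the vehicle libraries for Apcdd1, Dkk2 and Sox4, against 12.6% of all tested genes wholly above or below. None of the 3 passed the test in that fit. Leaving out vehicle replicate 1 separated the groups for Nkd2, and leaving out Norrin replicate 1 separated them for Znrf3, with Norrin higher in both, against 10.2% and 9.78% of all tested genes. The part of Norrin replicate 4 in these values was not tested beyond leaving it out.

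**Figure D3:**
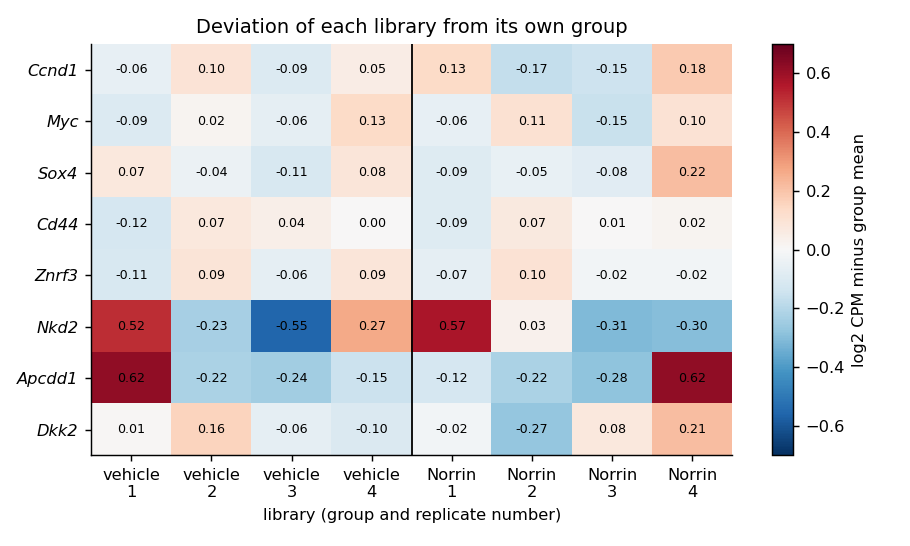
Difference of each library's log2 CPM from the mean of its own group, for the 8 genes (rows) and 8 libraries (columns). Apcdd1 stands 0.62 above its group mean in vehicle replicate 1 and in Norrin replicate 4, where Sox4 (0.22), Dkk2 (0.21) and Ccnd1 (0.18) are also above theirs.

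Precision differed among the genes. Over the 8 libraries Ccnd1 had 45659 reads, yet its SE was larger than that of Cd44 with 9115 reads, and its Norrin libraries varied by 12.6% (CV) against 4.65% for Cd44. A change of 1.18-fold would have sufficed for Cd44 to pass and 1.22-fold for Sox4. The same figure was 1.28-fold for Dkk2, 1.31-fold for Myc, 1.33-fold for Ccnd1, 1.36-fold for Znrf3 and 1.78-fold for Apcdd1. The upper ends stayed below 1.5-fold for all genes but Nkd2, but they moved with the library left out. That of Apcdd1 ran from 0.884-fold to 1.25-fold, and that of Dkk2 from 0.936-fold to 1.04-fold. Over 16 settings, the reported one and the omission of each library included, the highest was 1.17-fold for Ccnd1, 1.31-fold for Myc, 1.33-fold for Znrf3, 1.25-fold for Apcdd1, 1.04-fold for Dkk2, 1.09-fold for Sox4 and 1.08-fold for Cd44. For Nkd2 it ran from 2.75-fold to 3.64-fold over 15 settings.

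**Figure D4:**
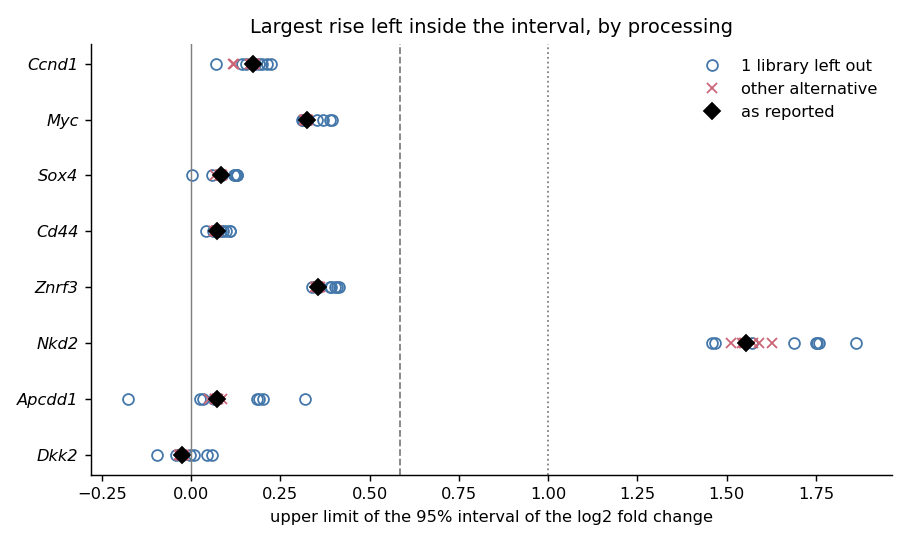
Upper end of the 95% interval of the log2 fold change for each gene, as reported (diamonds), with 1 library left out (circles) and under the other alternatives (crosses); the dashed line is a 1.5-fold and the dotted line a 2-fold rise. Every value for 7 genes lies left of the dashed line, and every value for Nkd2, from 1.46 to 1.86, lies right of the dotted line.

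Per unit of transcript length, the genes covered a wide range of levels. In the authors' deposited table the vehicle RPKM was 437 for Ccnd1, 50.8 for Dkk2, 48.7 for Cd44, 46.0 for Sox4, 17.4 for Myc, 6.11 for Znrf3, 5.09 for Apcdd1 and 0.487 for Nkd2. Axin2 was lower still, at 0.123 RPKM, and rose to 2.63 RPKM under Norrin, below the level of Znrf3 and Apcdd1. The deposited values have no replicates. Scaled by the CV of the CPM between vehicle libraries, the spread was 4.10, 2.72 and 2.99 RPKM for Dkk2, Cd44 and Sox4. Neighbours in this trio did not differ beyond the larger of their spreads, but Cd44 and Sox4 differed slightly beyond the smaller. Znrf3 and Apcdd1, with spreads of 0.441 and 1.65 RPKM, likewise differed beyond the smaller spread but not beyond the larger. The deposited folds of the 8 genes ran from 0.755 for Apcdd1 to 1.49 for Nkd2.

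The difference from Axin2 was also read without scaling between libraries. The log2 ratio of Axin2 counts to the counts of each of the 8 genes was taken within each library. It was higher in all 4 Norrin libraries than in all 4 vehicle libraries for every one of the 8, by 3.83 against Nkd2 to 4.82 against Apcdd1. The 8 ratios share the Axin2 counts, so they describe its rise against each gene and are not separate results. In reads, Axin2 was at 8, 2, 4 and 5 under vehicle and at 87, 79, 107 and 100 under Norrin.

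Promoter sequence is shown for Axin2, which rose, beside Dkk2 and Cd44, which did not pass. RefSeq promoter windows on GRCm38.p6 matched Axin2 and 4 of the 8 genes, Nkd2, Dkk2, Sox4 and Cd44. The 250 bases before each start were searched on both strands for the TCF/LEF spelling CTTTGAA and its variants ending in the letters AT, TA or TT, which 14.8% of 32851 windows hold. Their shared core, CTTTG, which every full spelling contains, is held by 48.6%. No window of these 5 genes held a full spelling. The core was found once each in Dkk2 and Cd44 and is in capitals below, as CTTTG or its reverse complement CAAAG. A match is a description of letters, and its absence from so short a window says nothing of sites elsewhere. The stretches are chr11:108920099-108920348 (plus strand) for Axin2, chr3:132085042-132085291 (plus strand) for Dkk2 and chr2:102901666-102901915 (minus strand) for Cd44, 5′ to 3′.
Axin2: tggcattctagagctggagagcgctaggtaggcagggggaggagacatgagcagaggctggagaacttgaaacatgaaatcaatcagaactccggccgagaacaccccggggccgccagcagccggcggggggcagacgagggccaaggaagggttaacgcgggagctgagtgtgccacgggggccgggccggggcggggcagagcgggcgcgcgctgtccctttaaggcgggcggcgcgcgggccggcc
Dkk2: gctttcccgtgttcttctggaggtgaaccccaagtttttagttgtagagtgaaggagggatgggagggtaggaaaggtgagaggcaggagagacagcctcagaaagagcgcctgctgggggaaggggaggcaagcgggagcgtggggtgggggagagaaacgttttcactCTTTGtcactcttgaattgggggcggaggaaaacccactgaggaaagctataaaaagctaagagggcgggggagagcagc
Cd44: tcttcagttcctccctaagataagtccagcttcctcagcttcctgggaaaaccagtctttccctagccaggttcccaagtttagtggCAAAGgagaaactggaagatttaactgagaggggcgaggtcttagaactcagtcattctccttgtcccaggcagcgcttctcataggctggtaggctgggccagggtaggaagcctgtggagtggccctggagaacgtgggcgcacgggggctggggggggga

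Genes of the pathway were then read from 2 lists that include Axin2 and the 8 genes, so these counts are not separate from those above. The lists held 44 tested genes, 35 of them without Axin2 and the 8. Of 37 feedback genes, inhibitors and receptors, 16 were in the table and 14 were tested, Nkd2, Znrf3, Apcdd1 and Dkk2 among them. Axin2 rose and 13 did not pass, and the list's median log2 fold change was −0.06. Among those that did not pass, Bambi, a pseudoreceptor gene induced by beta-catenin in other cells, was named after its values were seen. Its mean was 7.85 CPM in vehicle libraries and 5.09 CPM in Norrin libraries (log2 −0.63 ± 0.21, adjusted p = 0.133). Its groups did not overlap, as in 7.01% of all tested genes. On the target list, Mmp14 (log2 0.38 ± 0.11, adjusted p = 0.0612) and Id2 (−0.41 ± 0.12, adjusted p = 0.0908) lay nearer the threshold without passing. Feedback genes such as Nkd1, Notum, Rnf43 and Lgr5 were not analysed here. The lowest vehicle RPKM in the table was 0.1, so genes silent under vehicle are not covered.

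Of 53 commonly listed targets, 32 were in the table and 30 were tested, Ccnd1, Myc, Sox4 and Cd44 among them. Met, the hepatocyte growth factor receptor gene, and Cyr61, a matricellular protein gene, rose, Ets2, an ETS transcription factor gene, fell, and 27 did not pass. The median was −0.0033. These 3 of 30, and 1 of 14 feedback genes, stand against 2.17% of all tested genes. An unadjusted p under 0.05 (edgeR) was found for 8 of the 30 targets and 4 of the 14 feedback genes, against 11.3% of all tested genes. Axin2 and Dkk2 were among these feedback genes. Met was at 83.7, 95.2, 94.8 and 86.2 CPM under vehicle and at 117, 117, 106 and 99.8 CPM under Norrin, each Norrin library above each vehicle library (log2 0.29 ± 0.06, adjusted p = 0.00971). Omitting vehicle replicate 1, vehicle replicate 4, Norrin replicate 1 or Norrin replicate 2 ended this call (adjusted p from 0.0502 to 0.0609). Ets2 went from 156 to 119 CPM, a log2 change of −0.38 ± 0.06 (adjusted p = 0.00015), and stayed past the threshold without any 1 library. Cyr61 was called at 0.24 ± 0.06 (adjusted p = 0.0455), which DESeq2 kept (adjusted p = 0.0328) and limma-voom did not (0.0539). Of the 8 omissions of 1 library, only that of vehicle replicate 2 kept it (adjusted p from 0.0679 to 0.196 in the others). Lef1, a TCF/LEF factor gene and a target, had too few reads to test, with 1, 3, 3 and 4 under vehicle and 6, 3, 1 and 3 under Norrin.

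**Figure D5:**
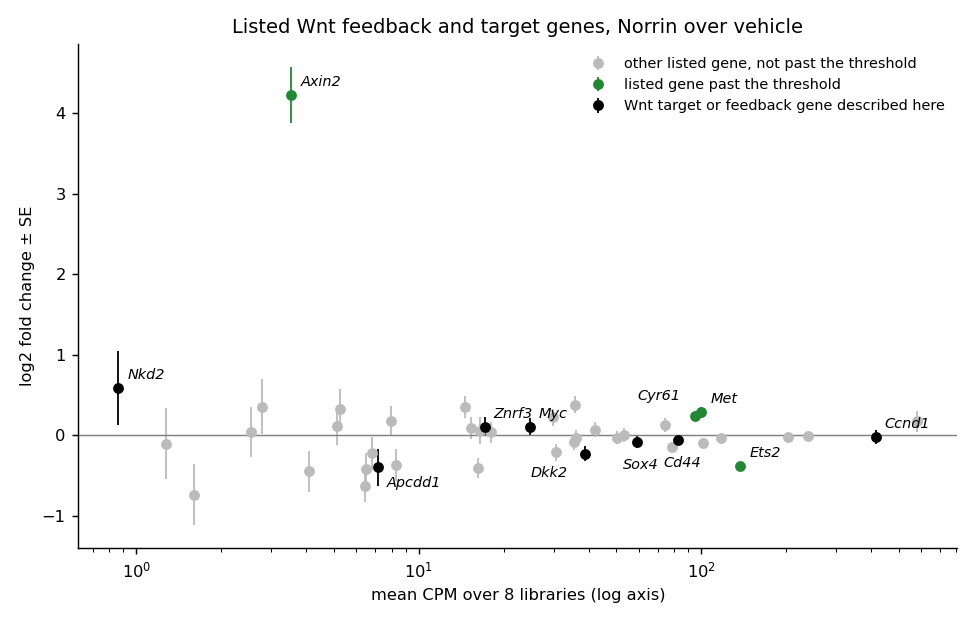
Log2 fold change ± SE against mean CPM (log axis) for the tested genes of the feedback and target lists; black marks the 8 genes, green the listed genes past the threshold and grey the others. Axin2 lies at 4.23, and the other 43 genes lie between −0.73 and 0.59.

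Paralogues of the members did not pass either. Ccnd2 went from 119 to 116 CPM (log2 −0.04 ± 0.06), Ccnd3 from 51.7 to 53.0 CPM (0.04 ± 0.08) and Mycn from 4.92 to 5.31 CPM (0.12 ± 0.24). These 3 were the tested ones of 12 listed. With edgeR 0 passed, as with DESeq2 and limma-voom, against 2.17% of all tested genes with edgeR. An unadjusted p under 0.05 (edgeR) was found for 0, against 11.3% of all tested genes, so with 3 genes both counts are close to the background. The upper end of the 95% interval of Mycn was 1.51-fold, so a 1.5-fold rise was not excluded for it. Ccnd2 and Mycn are also on the target list.

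Partners of the proteins were read in the same way. Of 17 genes for G1 kinases, their inhibitors, E-type cyclins, E2F factors and pocket proteins, 0 passed with any of these tools (5 at an unadjusted p under 0.05, against 11.3% of all tested genes; median 0.05), with Cdk4 at 0.05 ± 0.05 and Rbl1 at −0.02 ± 0.08. Without Norrin replicate 4, 1 was called, the retinoblastoma gene Rb1 (0.31, adjusted p = 0.0309). Of 11 genes of the MAX network, in which Myc finds its dimer partner, 0 were called by these tools (1 at an unadjusted p under 0.05; median −0.01), with Max at 0.05 ± 0.08 and Mga at 0.03 ± 0.05. Of 23 growth and ribosome assembly genes listed as Myc targets, 0 were called by these tools (2 at an unadjusted p under 0.05; median 0.04), with Ncl at −0.06 ± 0.03 and Mybbp1a at 0.05 ± 0.05. Without Norrin replicate 4, 1 was called, Cad, a pyrimidine synthesis gene, at −0.21 (adjusted p = 0.0466).

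For Cd44, 13 genes of hyaluronan turnover, its receptors and the linkers from CD44 to actin were tested. Stab1, a scavenger receptor gene, fell from 615 to 522 CPM (log2 −0.24 ± 0.05, adjusted p = 0.00179), and 12 did not pass (median −0.04). This 1 of 13 stands against 2.17% of all tested genes. An unadjusted p under 0.05 (edgeR) was found for 4 of the 13, against 11.3% of all tested genes. For Znrf3, whose protein is cleared by R-spondins with LGR receptors, 3 of 7 listed genes of that axis were tested, and 0 passed with edgeR, with DESeq2 and with limma-voom (0 with an unadjusted p under 0.05). Rspo3 was at −0.25 ± 0.20, Lgr4 at 0.18 ± 0.19 and Lgr6 at −0.73 ± 0.38. Lgr4 and Lgr6 were also counted in the feedback list above.

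Across the 8 libraries, the members most like each other in log2 CPM were Apcdd1 and Sox4 (Pearson r = 0.83) and Myc and Znrf3 (r = 0.78). Within groups, after subtracting each group's mean, the same values were 0.80 and 0.70. Norrin replicate 4, in which Apcdd1 and Sox4 both stood high, contributes to the first of these. Among 13089 genes with at least 1 CPM, those most like Ccnd1 were Kbtbd6 (r = 0.99), Pfkl (0.95) and Ramp3 (0.95), and those most like Myc were Samd10 (0.97), Brpf1 (0.96) and Dok1 (0.96). These are descriptions over 8 libraries that share their totals. The genes named for Ccnd1 and Myc were picked as the highest of 13089 correlations, and that choice alone raises r. Kbtbd6 averaged only 1.13 CPM.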

How the data were processed

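RNA from 4 vehicle and 4 Norrin cultures was ribodepleted and sequenced in paired ends, per the labels' protocols. The authors deposited estimated counts per gene and library, an RPKM for each group, and the fold or ratio of Norrin to vehicle RPKM. STAR is named in the submitters' processing notes. Build, annotation, counting tool and strand setting: not given in the sources used here. In the GENCODE M21 annotation, exons of Ccnd1 (LTO1), Sox4 (Gm26735) and Axin2 (Gm11670) overlap a gene on the other strand, so their reads may be shared.

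Of 123616 counts, 763 were not whole, 635 by more than 0.01, and all were rounded. One row without a gene name or counts was left out. Genes were filtered with filterByExpr and tested with edgeR 4.0.16 in R 4.3.3 (TMM, robust quasi-likelihood F test, two-sided) over 13666 genes. Each 95% interval holds the fold changes that this F test does not reject at 0.05. Each SE was derived as the absolute log2 fold change without a prior count, divided by the square root of F, since the test itself gives none. Printed log2 fold changes include the prior count of 0.125. For shares over all genes, log2 fold change without the prior count ± t × SE was used. Alternatives were DESeq2 1.42.0, limma-voom (limma 3.58.1), other scalings, filters and interval forms, a block for the replicate number, omission of each library in turn and a threshold of 0.01. Members and lists were chosen with earlier results of these data known. Named genes were the members, Axin2, list genes past the threshold or the 2 most abundant where none passed, paralogues, and the 3 genes most correlated with Ccnd1 and Myc. Lef1, Lgr6, Bambi, Mmp14, Id2 and Gja1, and Rb1 and Cad, were added after their values were seen. Listed symbols were matched exactly.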

Additional observations from a re-analysis of the deposited data

Results flagged for a closer look

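In 3 of the 18 groups of 4 libraries examined, over the 8 genes and Axin2, 1 library stood far from its group. The rule used flags about 1 in 20 groups when values are independent and normally distributed. The 18 groups share the same libraries. Apcdd1 and Sox4 were also correlated within groups (Pearson r = 0.80). Norrin replicate 4, at 0.62 and 0.22 above its group means in log2 CPM, contributes to that correlation, which is therefore not a further result. Their flags in Norrin replicate 4 come from the same library and are not counted as separate results. The share of all tested genes flagged by this rule was not computed, so an excess over chance is not shown. Apcdd1 was at 12.1 CPM in vehicle replicate 1, against 6.62 to 7.07 CPM in the other vehicle libraries. Apcdd1 was also at 9.14 CPM in Norrin replicate 4, against 4.90 to 5.48 CPM in the other Norrin libraries. Sox4 was at 66.7 CPM in Norrin replicate 4, against 53.8 to 55.3 CPM. Over 13090 genes, the deviations of vehicle replicate 1 and Norrin replicate 4 from their group means had a correlation of −0.078.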

How the results depend on the processing

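Of 413 values under alternative settings, 395 kept their direction and their side of the threshold or lay close to the reported value. None of the 8 genes passed the test under any alternative. The value for Ccnd1 turned positive with 1 library left out, in a range of −0.086 to 0.032. For the whole table, the test called 164 genes higher and 132 lower. At a threshold of 0.01 it called 99 and 72, or 171 in all. With 1 library left out it called 84 to 217 lower and 206 to 452 in all. The list of commonly named targets held 5 calls by DESeq2 in place of 3 (Mmp14 and Id2 added), and 1 to 3 with a library left out. The lists of G1 regulators and of Myc targets held 0 or 1 with a library left out. The number of genes of the 8 whose groups did not overlap ran from 0 to 3 with a library left out, a count chosen after seeing the data.

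The samples share replicate numbers, and same-numbered libraries deviated together weakly, with correlations of −0.032, 0.013, 0.047 and 0.10. Such correlations cannot show whether same-numbered cultures were handled together, and the labels do not say. The reported fit treats the libraries as unpaired. With the replicate number as a block in edgeR, 402 genes were called, against 296 in the reported fit. The value for Dkk2 was then −0.23 (adjusted p = 0.34), and no call among the 8 genes changed. Nkd2 did not pass the stricter filter, so that alternative gave no value for it. Depth limits Nkd2 most, with 95 reads over 8 libraries.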
